A study of Arabidopsis thaliana with 4 samples.

Results

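The beta-glucosidases of glycoside hydrolase family 1 in Arabidopsis thaliana, named BGLU, were followed in 2 libraries of Col-0 seedlings, the wild type, and in 2 of the uba2c mutant, labelled uba2c(-/-). The 35 genes described here, of 32548 in the expression table, were taken from a list of locus identifiers of the family. It includes PYK10 (BGLU23), PEN2 (BGLU26) and DIN2 (BGLU30) and leaves out the myrosinases TGG1 and TGG2. No member was chosen by a measured value, but the family was proposed with fold changes and calls of this same contrast of uba2c with wild type known, so the values given below describe these libraries and support no statement about the family as a whole. All libraries came from whole seedlings 2 weeks old, grown on MS plates with 16 h of light (23 °C) and a night of 8 h (22 °C). The labels give neither the allele nor the number of plants in a library, and do not say whether replicates were separate cultures. What the p-values weigh is thus the spread among these libraries, part or all of which may be technical.

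Enzymes of this family remove glucose from small molecules that plants store as inactive conjugates, or in some cases move glucose between acceptors. PYK10 and its relatives fill ER bodies, compartments of the endoplasmic reticulum that are common in seedlings and roots of Arabidopsis, and cleave coumarin glucosides such as scopolin. PEN2 cleaves indole glucosinolates in defence against fungi, and other members act on the glucose ester of abscisic acid, on flavonol glycosides or on glucosides of lignin monomers.

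The libraries held 19720586 to 19847651 recovered reads. UBA2C, an RNA-binding protein gene and the gene named by the mutant, stood at 799 and 771 in wild type and at 209 and 234 in uba2c (log2 fold change −1.83, SE 0.08, limma adjusted p = 2.64e-06), so its transcript was lower in both libraries labelled uba2c. Values given without a unit are the deposited read numbers after an adjustment for library size that does not follow the totals alone. Fitted size ratios were 1.0392 for uba2c 1 and 1.0194 for uba2c 2, at recovered totals of 19847651 and 19816174. Whole reads are named as such. Where both genotypes express a gene in whole seedlings, fewer cells of a type and less RNA per cell cannot be told apart. Green shoot markers (6 genes, 3 higher and 3 lower in uba2c) and root markers were read in every library. Of the 20 root markers, 11 were lower in uba2c and 3 higher, 0 were without a read, and their summed value was 5727 and 6348 in wild type and 4251 and 4363 in uba2c. Among them the root hair genes PRP1 and PRP3 were at −3.33 and −1.93 on the log2 scale, PER64 of the endodermis at −0.92 and the iron transporter gene IRT1 at 2.18. BGLU21, BGLU22 and BGLU23 are known from roots, and the part of root tissue in these results was not tested. Of 6 anther and pollen markers and 6 seed and embryo markers, 4 and 1 were tested and 0 were called, with summed values of at most 87.2 and 8.74 in any library.

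Among the members called in these libraries, more were lower than higher in uba2c. Of the 35 members 28 reached a value of 1 in 2 or more libraries and were tested, 3 had no read at all and 4 had too few reads. In limma, at a false discovery rate (FDR) of 0.05, 12 tested members were lower and 4 higher in uba2c, and 12 did not pass. Across all tested genes 34.8% passed, 17.4% as higher and 17.4% as lower. The median log2 change of the tested members was −0.22, beside −0.00 over all tested genes, and the share of members that passed was 57.1%. These figures cover the members that passed the filter on low values. They come from the contrast known when the family was proposed, so nothing is read from them. The same shares of all tested genes, 34.8% called and 17.4% in each direction, stand beside the counts of every marker and gene list in this report. Those lists were also chosen with earlier results known, and their counts describe these libraries only. The 2 genotypes did not overlap for 22 of the 28 tested members, against 68.1% of all tested genes. A change of at least 2-fold was reached by 4 of the called members, BGLU21, BGLU28, BGLU30 and BGLU43, all lower in uba2c. That is 25% of the called members, beside 17.6% (1372 genes) of all called genes.

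Without uba2c 1 or without uba2c 2 limma called 0 of all 22439 genes, so the loss of the members' calls there is not particular to them. The fitted log2 changes of BGLU21 were then −2.07 and −1.88, and those of BGLU44 −0.57 and −0.53. Such fits leave a single uba2c library, so nothing is read from counts of members that pass in them. edgeR's quasi-likelihood test on the recovered reads of all libraries called the same 16 members in the same direction and BGLU45 as lower. Its background was 45.5% of 20091 genes (22.6% higher, 22.9% lower). DESeq2 called 15 of the 16, all but BGLU46, with a background of 23.3% of 20601 genes (11.9% higher, 11.4% lower).

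**Figure D1:**
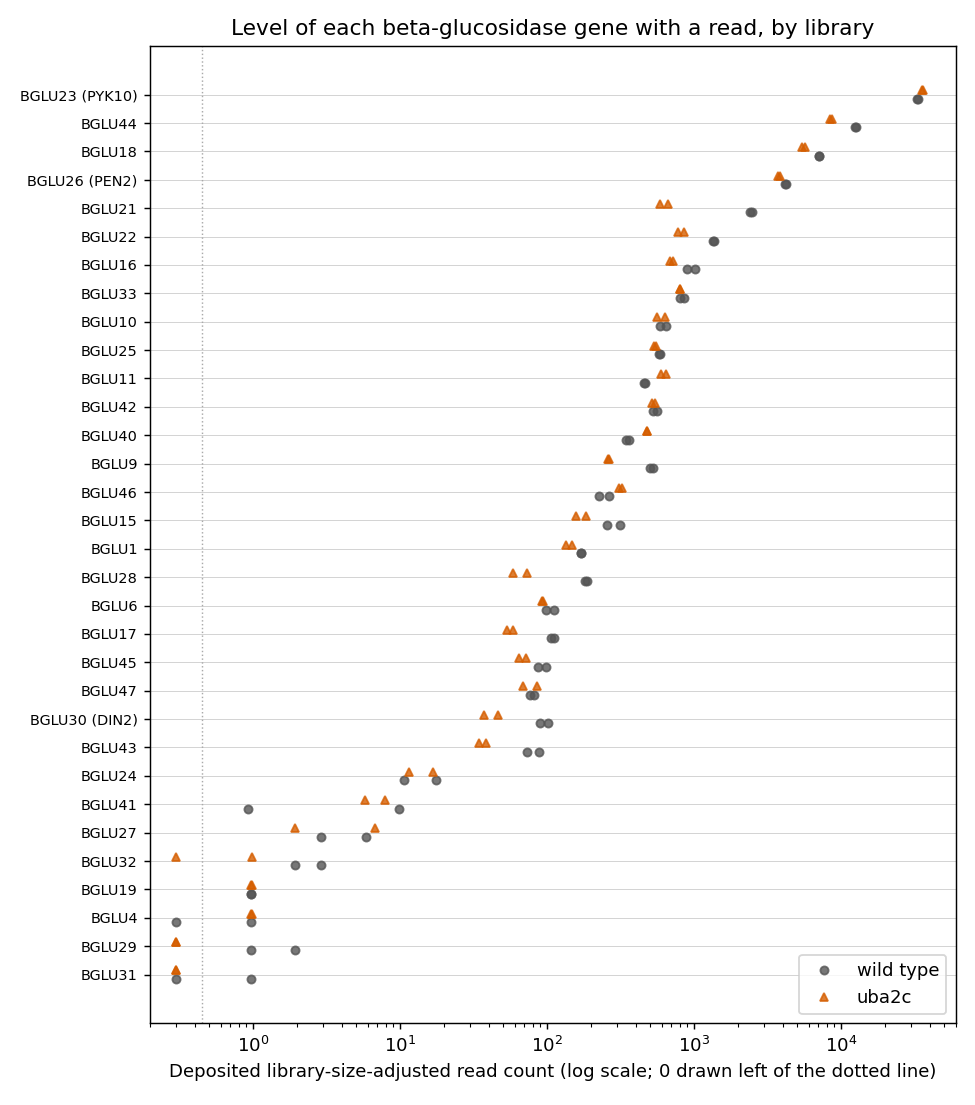
Deposited library-size-adjusted read count (log axis) of each beta-glucosidase gene with at least 1 read, with circles for the 2 wild type libraries and triangles for the 2 uba2c libraries. BGLU23 lies at 32728 and above in every library, and the levels of the family run down from there to single reads.

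The levels of the family spanned several orders of magnitude, and PYK10 alone held a large share of its reads. In RPKM, computed from the recovered reads with the longest annotated transcript as length, the mean level in wild type was 954 ± 8.61 for BGLU23, 329 ± 4.19 for BGLU44, 173 ± 0.822 for BGLU18, 98.1 ± 0.667 for BGLU26 and 64.5 ± 1.5 for BGLU21 (SD, n = 2). Ranked this way in wild type, BGLU23 was number 57 and BGLU44 number 207 among the 32548 genes. In uba2c the order of the leading 4 was the same, at 1026 ± 25.1, 223 ± 7.07, 135 ± 6.77 and 88.2 ± 3.89. The mean of BGLU21, 16.3 in uba2c, fell behind those of BGLU22 (20.3), BGLU33 (19.1), BGLU16 (17.5) and BGLU10 (16.8). All members together took 0.348% and 0.351% of all reads of the wild type libraries and 0.322% and 0.308% of those of uba2c. BGLU23 made up 49.3% and 49.4% of the reads of the family in wild type and 58.6% and 59.2% in uba2c, and the share of BGLU44 went from 18.7% and 18.8% to 14.1% and 14.1%. The summed value of all members was 66426 and 67157 in wild type and 61409.9 and 59844 in uba2c, a log2 difference of −0.14. The sum without BGLU23 was 33698 and 34001 in wild type and 25400.0 and 24441 in uba2c.

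Close relatives in the family lie side by side in the genome, so sequences are shown for the most alike neighbours, whose fitted changes differ in size. In the RefSeq annotation of TAIR10.1, the coding sequences of BGLU9 and BGLU10 are identical at 94.2% of 1518 aligned bases and those of BGLU21 and BGLU22 at 93.3% of 1575. The stretches below come from the coding sequences, 5′ to 3′, with the bases that differ within a pair in capitals. They were chosen as the first ungapped 60-base window inside 1 exon whose number of differences was nearest to the average of the pair. Windows whose first or last base differed within the pair were left out.
BGLU9, chr4:13860469-13860528, minus strand: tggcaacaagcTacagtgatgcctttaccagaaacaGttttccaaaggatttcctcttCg
BGLU10, chr4:13864387-13864446, minus strand: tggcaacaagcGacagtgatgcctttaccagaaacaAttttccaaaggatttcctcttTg
BGLU21, chr1:24702842-24702901, minus strand: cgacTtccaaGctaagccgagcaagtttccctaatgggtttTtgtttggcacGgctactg
BGLU22, chr1:24709584-24709643, minus strand: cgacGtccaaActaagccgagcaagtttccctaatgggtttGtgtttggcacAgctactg
In the first pair 3 of 60 bases differ and in the second 4. Libraries were read as 50-base single ends. Of all 50-base windows of the longest transcript, 13.9% in BGLU9 and 11.9% in BGLU10 occur elsewhere in the genome or in another transcript, and 5.16% in BGLU21 and 4.92% in BGLU22. Reads from those windows could be split between copies or dropped, and how multiply matching reads were counted is not stated. Across the family 21 of 35 members had no such window.

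The ER body genes did not move together. BGLU23 (AT3G09260), the PYK10 gene, had 32728 and 33156 in wild type and 36009.9 and 35403 in uba2c. Both uba2c libraries lay above both of wild type, a log2 change of 0.12 (SE 0.03, limma adjusted p = 0.0226) that was lost with limma or edgeR without either wild type library. The adjusted p of BGLU23 ran from 0.00319 to 0.242 across alternatives, and AT3G09250 overlaps it on the opposite strand. BGLU21 (AT1G66270), which encodes a scopolin-cleaving enzyme of roots, had 2493 and 2412 in wild type and 666 and 583 in uba2c. This was the largest change among the called members (log2 fold change −1.97, SE 0.07, limma adjusted p = 9.35e-07), 3.93-fold lower with no overlap between genotypes. BGLU22 (AT1G66280), its neighbour on chromosome 1 with 3345 bases between the genes, had 1355 and 1344 in wild type and 847 and 779.6 in uba2c. It fell by 0.73 on the log2 scale (SE 0.05, limma adjusted p = 4.06e-05).

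The shares of the reads of this pair did not overlap between genotypes. BGLU21 took 64.8% (95% exact binomial interval 63.3 to 66.3) and 64.2% (62.7 to 65.7) of the reads of the pair in wild type. In uba2c it took 44% (41.5 to 46.5) and 42.8% (40.2 to 45.5). The intervals cover counting error only, and with 2 libraries against 2 a two-sided exact permutation test cannot go below p = 0.333. No other test of the difference was run for this or the other pairs. Over the 150 bases before the annotated starts the pair aligned with 45.5% identity.
BGLU21, chr1:24703167-24703316, minus strand: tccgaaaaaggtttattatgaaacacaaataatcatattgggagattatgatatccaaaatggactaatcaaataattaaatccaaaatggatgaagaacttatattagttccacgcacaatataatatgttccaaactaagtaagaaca
BGLU22, chr1:24709997-24710146, minus strand: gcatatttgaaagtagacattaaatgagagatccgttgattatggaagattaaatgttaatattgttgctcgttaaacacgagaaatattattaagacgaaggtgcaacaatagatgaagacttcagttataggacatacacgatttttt
These upstream stretches are printed because the genes that follow them are near copies whose fitted changes differ in size, and they hold no capitals because the motif searched below does not occur in them.

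BGLU18 (AT1G52400), which encodes an enzyme of inducible ER bodies that releases abscisic acid from its glucose ester, had 7018 and 7067 in wild type and 5679 and 5382 in uba2c. It fell by 0.35 on the log2 scale (SE 0.04, limma adjusted p = 0.000276), with both uba2c libraries below both of wild type. BGLU25 (AT3G03640) was at 585 and 576 in wild type and at 553 and 534 in uba2c, which did not pass (log2 difference −0.10, 95% interval −0.23 to 0.04, limma adjusted p = 0.231). BGLU24 (AT5G28510) had 10.6 to 17.5 in every library, with overlapping genotypes. BGLU19 (AT3G21370) had 1 read in each library and BGLU20, known from anthers under the name ATA27, had none. Of the 6 anther and pollen markers MS1 and VGD1 were without a read, while LAP3 had 42 to 48 reads, QRT3 20 to 35, AMS 0 to 9 and MS2 1 to 4.

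Other genes of the ER body and of the complex that PYK10 forms with lectins split as well. In a list of 14, 4 were higher and 4 lower in uba2c, with a median log2 change of −0.01. The jacalin lectin genes JAL35 (2954 and 2940.4 to 4761 and 4637, log2 fold change 0.67, limma adjusted p = 6.86e-06), JAL22 (0.54, limma adjusted p = 1.80e-05) and JAL33 (0.28, limma adjusted p = 0.00128) rose. JAL23 fell from 279 and 242 to 54.9 and 48.0 (log2 fold change −2.33, limma adjusted p = 1.35e-05). NAI1, the transcription factor gene needed for ER bodies, had 316 and 272 in wild type and 395 and 361 in uba2c (log2 fold change 0.36, limma adjusted p = 0.0190). DESeq2 did not call NAI1 (adjusted p = 0.0514). NAI2, an ER body component gene, was at −0.09 and did not pass.

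Scopolin and related coumarin glucosides are known substrates of BGLU21 to BGLU23, and BGLU42 is known for a role in coumarin release from roots. BGLU42 (AT5G36890) had 562 and 527 in wild type and 542 and 519 in uba2c, with overlapping genotypes (log2 difference −0.04, 95% interval −0.18 to 0.11, limma adjusted p = 0.673). Of 8 coumarin genes 3 rose and 3 fell, with a median log2 change of 0.28 over 7 tested. CYP82C4, a cytochrome P450 gene of the iron-responsive coumarin branch, rose from 32.9 and 34.9 to 140.3 and 167 (log2 fold change 2.16, limma adjusted p = 4.49e-05). F6'H1, which opens the coumarin branch, was at −0.23 (limma adjusted p = 0.0413), and DESeq2 did not call it (adjusted p = 0.194).

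**Figure D2:**
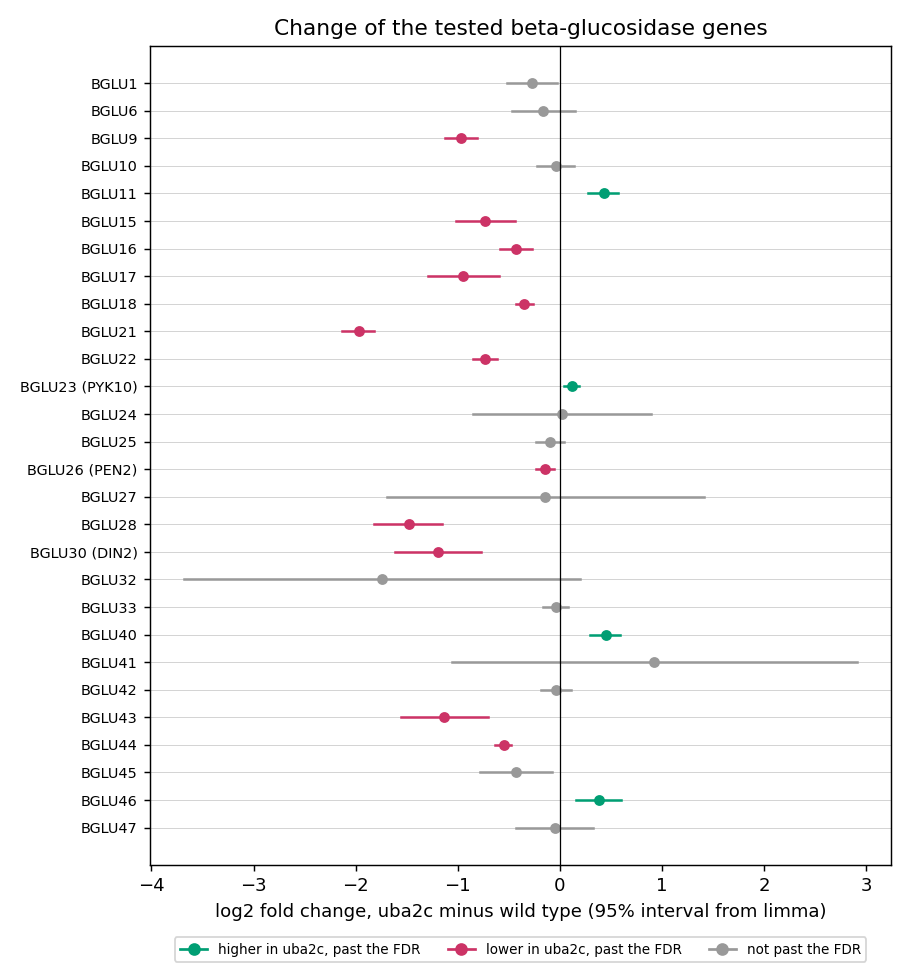
Log2 fold change of the 28 tested beta-glucosidase genes, uba2c minus wild type, with the 95% interval from limma, 2 libraries per genotype, coloured by the call at an FDR of 0.05. BGLU21 at −1.97 lies far from its genomic neighbour BGLU22 at −0.73 and from BGLU23, on another chromosome, at 0.12.

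PEN2 was lower by a small margin, and 3 genes of its row on chromosome 2 were lower too. BGLU26 (PEN2, AT2G44490), the peroxisome-associated enzyme of defence before fungal entry, had 4149 and 4189.8 in wild type and 3862 and 3692 in uba2c. The log2 change was −0.14 (SE 0.04, limma adjusted p = 0.0194), a call lost with limma without either wild type library and with edgeR without wild type 2 or uba2c 2 (0.00131 to 0.138 across alternatives). BGLU28 (AT2G44460) had 188 and 181 in wild type and 73.3 and 58.8 in uba2c, which is 2.80-fold lower (log2 fold change −1.48, SE 0.14, limma adjusted p = 0.000177). BGLU28 and BGLU30 are known to break down glucosinolates when sulphur is short.

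BGLU15, BGLU28, BGLU29, BGLU17 and BGLU26 follow each other on the plus strand of chromosome 2 between 18340602 and 18367835, with 0 protein-coding genes between neighbours. BGLU15 (AT2G44450), which cleaves flavonol bisglycosides, had 256 and 311 in wild type and 157 and 185 in uba2c (log2 fold change −0.73, SE 0.12, limma adjusted p = 0.00301). Its call was lost with limma without wild type 2, at an adjusted p of 0.0564 (2.18e-10 to 0.179 across alternatives). BGLU17 (AT2G44480) went from 106 and 111 to 52.9 and 58.9 (log2 fold change −0.95, SE 0.15, limma adjusted p = 0.00200). For BGLU29 (AT2G44470) the reads numbered 1 and 2 in the wild type libraries and 0 in both of uba2c, too few for a fold. Of this row of 5 genes 4 were called lower, with changes from −1.48 to −0.14, and BGLU29 was not tested. Across all tested genes 17.4% were called lower in limma, and nothing is read from the count in this row.

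A second row lies on the plus strand of chromosome 3, where BGLU27, BGLU16 and BGLU30 follow each other between 22205931 and 22220824. BGLU16 (AT3G60130) had 891 and 1013 in wild type and 721 and 689 in uba2c (log2 fold change −0.43, SE 0.07, limma adjusted p = 0.00218). BGLU30 (AT3G60140), the dark-inducible gene DIN2, had 90.0 and 101 in wild type and 46.3 and 37.2 in uba2c, a fall of 2.28-fold without overlap (log2 fold change −1.19, SE 0.18, limma adjusted p = 0.00170). BGLU27 (AT3G60120) ranged from 1.94 to 6.78 with overlapping genotypes.

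The direction of BGLU30 was opposite to that of most genes known, like DIN2, to rise in darkness or sugar starvation. In that list 8 of 11 rose and 1 fell, with a median log2 change of 0.79. TPS11, a trehalose phosphate synthase family gene, rose from 1278 and 1283 to 4395 and 4356 (log2 fold change 1.77, limma adjusted p = 2.03e-07), and BXL1, TPS8 and DIN10 rose by 1.32, 1.1 and 1.08. The sulphur deficiency list had 6 of 10 genes lower and 2 higher, with a median of −0.66. LSU1, a gene induced by low sulphur, fell from 448 and 417 to 113 and 154 (log2 fold change −1.71, limma adjusted p = 7.39e-05), and LSU2, SDI1 and GGCT2;1 fell by 1.44, 1.48 and 1.48 on the log2 scale. The 2 genes called higher encode sulphate uptake transporters, SULTR1;1 at 0.56 (limma adjusted p = 0.0282) and SULTR1;2 at 0.13 (limma adjusted p = 0.0346). DESeq2 called neither of these transporter genes (adjusted p = 0.189 and 0.126). Any link of BGLU28 or BGLU30 to the genes of either list was not tested.

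The letters GAGAC, the core of a sulphur-responsive element, were searched on both strands in the 250 bases before each annotated gene start. They occurred in 11 of 35 members (31.4%) and in 25.8% of 27444 protein-coding genes. Of these members BGLU17, BGLU26, BGLU28 and BGLU30 were called lower, BGLU24, BGLU25 and BGLU32 did not pass, and BGLU19, BGLU20, BGLU29 and BGLU31 were not tested. The other called members, BGLU21 among them, held no match in this window. Across all tested genes 17.4% were called lower in limma, and any link of the motif to a change was not tested. The G-box CACGTG, with the same letters on both strands, occurred in 2 members (5.7%) and in 6.5% of all genes, and the evening element AAAATATCT in 1 member (2.9%) and in 2.4%. None of the 3 motifs contains another. The 150 bases before BGLU28 and BGLU30 are shown with GAGAC or its reverse complement GTCTC in capitals.
BGLU28, chr2:18346156-18346305, plus strand: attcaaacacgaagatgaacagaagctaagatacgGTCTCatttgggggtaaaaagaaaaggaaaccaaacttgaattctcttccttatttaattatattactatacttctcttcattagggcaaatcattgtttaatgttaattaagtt
BGLU30, chr3:22216390-22216539, plus strand: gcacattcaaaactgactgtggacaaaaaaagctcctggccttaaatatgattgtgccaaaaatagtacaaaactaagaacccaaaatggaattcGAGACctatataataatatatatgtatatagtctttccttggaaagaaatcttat
A match describes the letters only and says nothing of a factor.

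Indole glucosinolate genes, which make the substrates of PEN2 or act beside it, went both ways. Of 14 genes 4 rose and 4 fell, with a median log2 change of 0.02. CYP83B1, an enzyme of the core pathway, fell from 3426 and 3402 to 2183 and 2241 (log2 fold change −0.63, limma adjusted p = 1.30e-05) and the regulator MYB34 fell by 0.44, while CYP79B3 rose by 0.57 and CYP79B2, which catalyses the same step, fell by 0.29. PEN3, the transporter gene known to act with PEN2, had 13234 and 13674 in wild type and 13431 and 13642 in uba2c (log2 difference 0.01, limma adjusted p = 0.856).

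Of the pair of enzymes known to cleave the glucose ester of abscisic acid, BGLU18 was lower and BGLU33 did not pass. BGLU33 (AT2G32860), the vacuolar enzyme, had 848 and 804 in wild type and 801 and 802 in uba2c (log2 difference −0.04, 95% interval −0.16 to 0.08, limma adjusted p = 0.552). In the list of abscisic acid synthesis, conjugation and breakdown 3 of 10 rose and 4 fell, with a median of −0.01. NCED3, the stress-induced synthesis gene, rose from 365 and 368 to 764 and 765 (log2 fold change 1.06, limma adjusted p = 8.20e-06). The breakdown genes CYP707A3 and CYP707A1 fell by 1.49 and 1.11 while CYP707A4 rose by 0.79. UGT71C5, which forms the glucose ester, was at −0.19 (limma adjusted p = 0.0376). DESeq2 called neither CYP707A4 (adjusted p = 0.189) nor UGT71C5 (adjusted p = 0.205).

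In the group of BGLU1 to BGLU11, some of which move glucose onto flavonoids, 1 of 5 tested members was higher and 1 lower. That is 40.0% of them, beside 34.8% of all tested genes, and nothing is read from the count. BGLU9 (AT4G27820) had 521 and 504 in wild type and 259 and 264 in uba2c (log2 fold change −0.97, SE 0.07, limma adjusted p = 3.03e-05). BGLU10 (AT4G27830), annotated with a possible role in anthocyanin glucosylation, lies 903 bases away on the same strand of chromosome 4 and had 583 and 640 in wild type and 634 and 558 in uba2c. The genotypes overlapped (log2 difference −0.04, 95% interval −0.22 to 0.14, limma adjusted p = 0.731). BGLU9 took 47.1% (95% exact interval 44.2 to 50.1) and 44.1% (41.2 to 47.0) of the reads of the pair in wild type and 29.0% (26.1 to 32.1) and 32.1% (28.9 to 35.4) in uba2c. The 150 bases before the 2 starts aligned with 57.3% identity and are printed for the same reason as those above.
BGLU9, chr4:13860746-13860895, minus strand: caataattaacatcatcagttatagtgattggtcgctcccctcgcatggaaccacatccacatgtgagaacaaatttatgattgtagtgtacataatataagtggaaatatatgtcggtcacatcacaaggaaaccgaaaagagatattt
BGLU10, chr4:13864660-13864809, minus strand: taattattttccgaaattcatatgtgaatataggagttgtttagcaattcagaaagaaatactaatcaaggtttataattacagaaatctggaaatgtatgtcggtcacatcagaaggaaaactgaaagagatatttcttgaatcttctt
Part of BGLU9 also overlaps AT4G07905 on the opposite strand, and whether counting used strand is not stated.

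BGLU11 (AT1G02850) was among the 4 members higher in uba2c, at 456 and 465 in wild type and 599 and 639.7 in uba2c (log2 fold change 0.43, SE 0.06, limma adjusted p = 0.00131). BGLU1 (AT1G45191) had 171 and 169.6 in wild type and 135 and 147 in uba2c and did not pass (log2 difference −0.27, 95% interval −0.52 to −0.03, limma adjusted p = 0.0809). BGLU6 (AT1G60270) ranged from 92.4 to 112 (log2 difference −0.16, limma adjusted p = 0.389). Anthocyanin genes were lower in 6 of 8 cases and higher in 2, with a median of −2.04. AT3AT1, with the smallest p of this list, rose from 52.4 and 45.5 to 169.5 and 149 (log2 fold change 1.69, limma adjusted p = 0.000109). DFR, an enzyme of the pathway, went from 79.5 and 71.7 to 16.3 and 17.7 (log2 fold change −2.12, limma adjusted p = 0.000190). Flavonol genes were lower in 3 of 9 cases and higher in 0, with a median of −0.40 over 6 tested, and FLS1, the flavonol synthase gene, fell by 0.94 on the log2 scale (limma adjusted p = 0.000468).

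**Figure D3:**
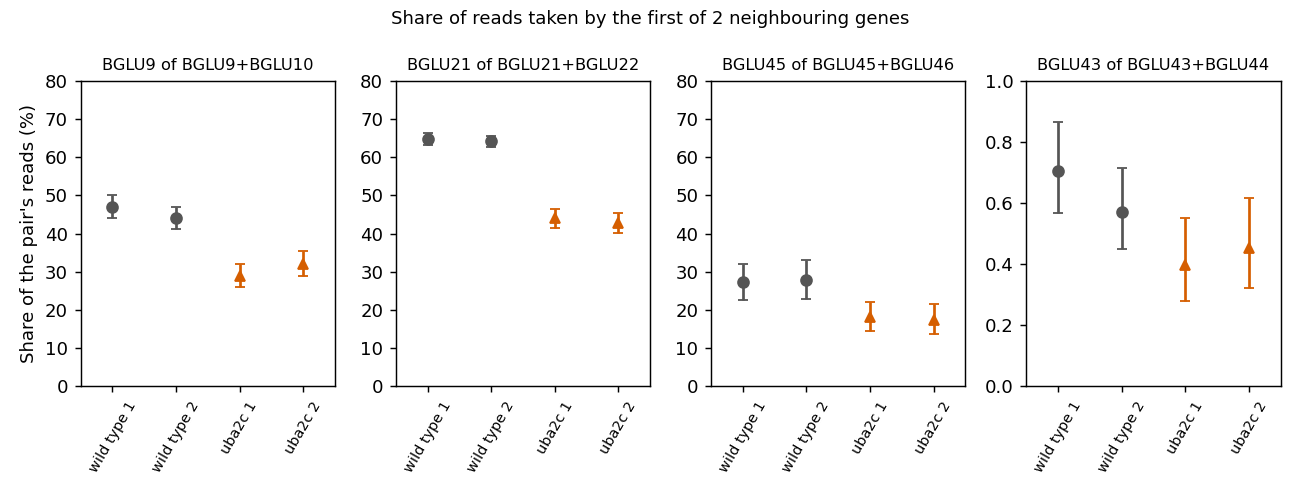
Share of the reads of 2 neighbouring genes that fell in the first gene, in percent, for each library, with 95% exact binomial intervals that cover counting error; the axis of the last panel ends at 1%. BGLU21 holds 64.8% and 64.2% in wild type and 44% and 42.8% in uba2c, and BGLU9 and BGLU45 also hold less in both uba2c libraries.

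In the group of BGLU40 to BGLU44 the most abundant member was lower. BGLU44 (AT3G18080), which cleaves mannosides as well as glucosides in vitro, had 12409 and 12638 in wild type and 8662 and 8428 in uba2c, 1.47-fold lower without overlap (log2 fold change −0.55, SE 0.03, limma adjusted p = 1.41e-05). BGLU43 (AT3G18070), 1280 bases upstream of it on chromosome 3, had 88.3 and 72.6 in wild type and 34.6 and 38.3 in uba2c. It fell by 1.13 on the log2 scale (SE 0.19, limma adjusted p = 0.00262), a call lost with limma without wild type 1 at an adjusted p of 0.0548 (3.31e-06 to 0.122 across alternatives). BGLU43 took 0.706% and 0.572% of the reads of the pair in wild type and 0.398% and 0.452% in uba2c. These shares did not overlap between genotypes, but the counting intervals did, except those of wild type 1 (0.569 to 0.866) and uba2c 1 (0.279 to 0.551). BGLU40 (AT1G26560) rose from 344 and 359 to 476 and 481 (log2 fold change 0.45, SE 0.06, limma adjusted p = 0.00135).

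Of the neighbours known to act on glucosides of lignin monomers, BGLU46 was called higher and BGLU45 did not pass in limma. BGLU46 (AT1G61820) had 263 and 226 in wild type and 325 and 309 in uba2c (log2 fold change 0.38, SE 0.10, limma adjusted p = 0.0168). DESeq2 did not call it (adjusted p = 0.0606), nor did limma and edgeR without wild type 2 or edgeR without uba2c 1 (0.000336 to 0.255 across alternatives). BGLU45 (AT1G61810), 349 bases before it on chromosome 1, had 98.0 and 87.1 in wild type and 72.2 and 64.7 in uba2c and did not pass in limma (log2 difference −0.43, 95% interval −0.78 to −0.08, limma adjusted p = 0.0598). edgeR's quasi-likelihood test called it lower (adjusted p = 0.0298, and 0.0269 to 0.291 across alternatives). BGLU45 took 27.2% and 27.9% of the reads of the pair in wild type and 18.2% and 17.3% in uba2c. BGLU45 overlaps AT1G08433 and AT1G08437 on the opposite strand, as BGLU19, BGLU25 and BGLU47 overlap AT3G21360, AT3G03650 and AT4G21770. BGLU47 (AT4G21760) ranged from 68.6 to 84.8 with overlapping genotypes.

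Lignin monomer genes were lower in 9 of 13 cases and higher in 1, with a median of −0.22. Across all tested genes 17.4% were called in each direction. F5H1, which leads to syringyl units, fell from 2861 and 2834 to 1762 and 1879.7 (log2 fold change −0.65, limma adjusted p = 2.61e-05). UGT72E2, which forms the glucosides that BGLU45 and BGLU46 cleave, fell from 1315 and 1245 to 745 and 842 (log2 fold change −0.69, limma adjusted p = 0.000161), while HCT rose by 0.38.

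**Figure D4:**
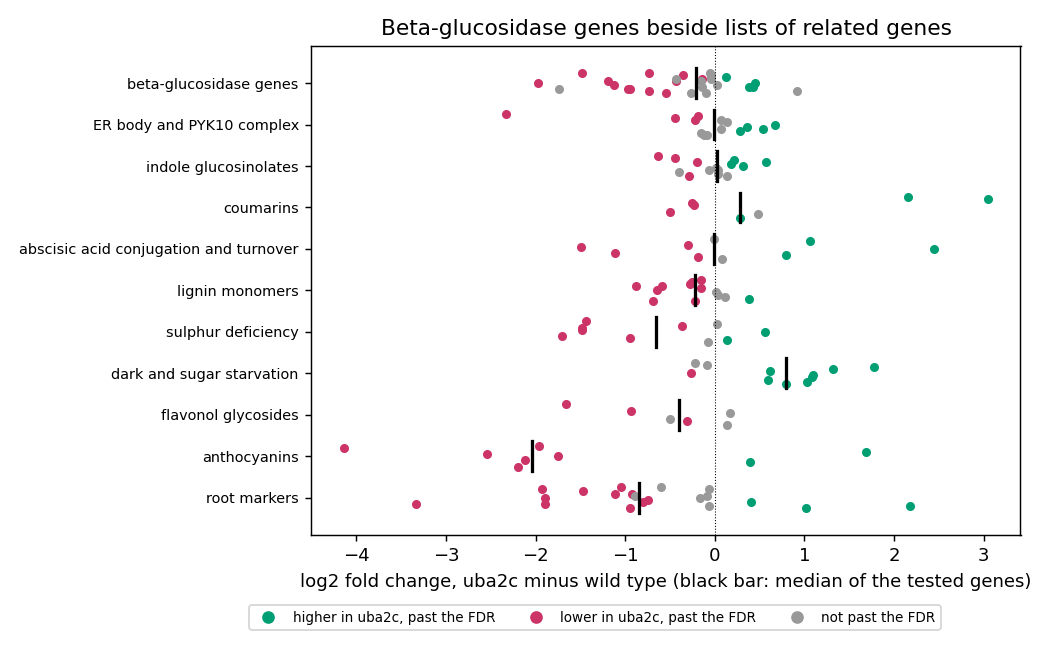
Log2 fold change, uba2c minus wild type, of the tested beta-glucosidase genes and of the tested genes of 10 related lists, 1 point per gene, coloured by the call at an FDR of 0.05, with the median of each list as a black bar. The sulphur deficiency list has a median of −0.66 and the genes known from darkness and sugar starvation one of 0.79.

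Of the 12 tested members that did not pass, 5 had a mean of at least 100 and are given above, and 7 had a lower mean with no value above 112. The latter are BGLU6, BGLU24, BGLU27, BGLU32, BGLU41, BGLU45 and BGLU47. BGLU41 (AT5G54570) had 9.76 and 0.918 in wild type and 5.75 and 7.86 in uba2c, and 45.4% of its 50-base windows lie in AT5G54569 on the opposite strand. It passed in limma once, without wild type 1 (log2 change 2.35, adjusted p = 0.0477). For BGLU32 (AT5G24550) the reads numbered 3 and 2 in the wild type libraries against 0 and 1 for uba2c. BGLU4 (AT1G60090), BGLU19, BGLU29 and BGLU31 (AT5G24540) had at most 2 reads in any library. BGLU3 (AT4G22100), BGLU13 (AT5G44640) and BGLU20 (AT1G75940) had 0 reads, which allows up to 0.152 RPM (3 reads) in a wild type library, for counting error only. BGLU13 shares 17.95% of its windows with other loci, of which AT5G42260 shares the most.

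Relatives outside the list are given for reference. BGLU8 had 2529 and 2334 in wild type and 1329.9 and 1311 in uba2c (log2 fold change −0.88, limma adjusted p = 9.85e-06). Its neighbour BGLU7 went from 91.2 and 73.5 to 38.6 and 29.4 (log2 fold change −1.27, limma adjusted p = 0.00270). BGLU5 was at 399 and 399 against 431 and 353 and did not pass. SFR2, a chloroplast membrane enzyme gene for freezing tolerance, was at 0.15 (limma adjusted p = 0.0248), and DESeq2 did not call it (adjusted p = 0.0995). The myrosinases, family members that cleave glucosinolates, were called lower in 4 of 6 cases and higher in 0, and TGG3 and TGG6 had no read. TGG2 went from 24669 and 24647 to 9199 and 9327 (log2 fold change −1.41, limma adjusted p = 2.03e-07).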

How the data were processed

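RNA was measured in 4 seedling libraries, 2 per genotype. Per the labels' protocols, total RNA was extracted with Trizol and read as single ends of 50 bases. Per the submitters' processing notes, the tools were HISAT2, featureCounts, edgeR, FastQC and SAMtools 1.9 and the build TAIR10, with no settings stated. Each deposited value is a signal, a read number per gene that the authors scaled for library size, though not by the total alone. It is thus not a whole count. They have the form of edgeR's quantile-adjusted pseudo-counts within each genotype. With 1 size ratio per library and 1 dispersion fitted, 100% of deposited values came back to whole reads within a relative tolerance of 0.001. edgeR on these reads called 9138 genes.

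Main tests used limma 3.58.1 in R 4.3.3, with a mean-variance trend, on log2(value + 0.5), genotype as the single term, two-sided, for the 22439 genes that reached a value of 1 in 2 or more libraries. The Benjamini-Hochberg adjustment ran over all of them, with an FDR of 0.05. Fold changes are differences of mean log2(value + 0.5); for low genes they depend on the pseudocount and can be smaller or larger than those of DESeq2. edgeR 4.0.16 (quasi-likelihood, TMM) and DESeq2 1.42.0 on recovered reads were alternatives, beside other pseudocounts, filters, a replicate block and each library left out. The steps were tested on simulated data.

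Members and lists were chosen with earlier results of these data known. Members past the FDR or with a mean of at least 100 are given in every library, and of each list up to 4 genes by p, with further genes named after their values were seen. All 32548 identifiers matched RefSeq loci of TAIR10.1, the source of positions and sequences, and coding sequences were aligned with MAFFT. The table holds 0 columns of other samples. Replicates differed by more than sampling noise (chi-square over degrees of freedom 1.51 and 2.01) and were kept apart.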

Additional observations from a re-analysis of the deposited data

How the results depend on the processing

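The counts of called members, 4 higher and 12 lower in uba2c, stayed within 1.5 times under other pseudocounts, filters, scalings, tests and the replicate block. Leaving out 1 library, limma called 0 to 4 higher and 0 to 10 lower (0 without either uba2c library) and edgeR 2 to 4 higher and 11 to 12 lower, with 2 higher in both without wild type 2. Over all genes 3908 were higher and 3901 lower, beside 2454 and 2350 in DESeq2; with 1 library left out limma called 0 to 2054 and 0 to 1794 and edgeR 2951 to 3595 and 2877 to 3692. With the replicate block limma called 4 members higher and 12 lower, and 4039 and 3986 of all genes. Same-numbered libraries did not deviate together (correlation 0.011 over 19083 genes), and the labels give the numbers no meaning beyond a name.

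The summed level of the members differed by −0.14 on the log2 scale, and by −0.44 without BGLU23. Sign changes were limited to 6 members that did not pass. BGLU24, at 0.02, was at −0.01 in edgeR with library totals. Leaving out 1 library gave BGLU10 −0.13 to 0.05 in limma and −0.13 to 0.05 in edgeR, BGLU24 −0.33 to 0.37 in limma and −0.31 to 0.40 in edgeR, BGLU27 −0.92 to 0.65 in limma, BGLU41 −0.51 to 2.35 in limma and −0.50 to 0.55 in edgeR, BGLU42 −0.08 to 0.01 in limma and −0.09 to 0.01 in edgeR and BGLU47 −0.20 to 0.10 in limma and −0.20 to 0.10 in edgeR. BGLU10 was at 0.03 in edgeR without wild type 2 and BGLU24 at −0.28 in edgeR without uba2c 2. The cause of these shifts was not tested. Few reads limit the low members, and 2 libraries per genotype limit every call.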
